A study of Mus musculus with 29 samples.

Results

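The comparison is between young somites and the tissue they form from: somites 2 to 5 (SOMB) against presomitic mesoderm together with the newest somite (SOMA), in mouse embryos at embryonic day 9.0 (E9.0). Its members were chosen by library title and are 7 of the 29 RNA-seq libraries of the series, 3 of SOMA (SOMA1, SOMA3 and SOMA4) and 4 of SOMB (SOMB1 to SOMB4). All 7 came from C57BL/6 embryos that carry Dll1-YFP. The dissected tissue was dissociated and cells with YFP were collected by fluorescence-activated sorting, with no culture and no treatment, so both groups share the strain, the allele, the sort and the age. The labels call the sorted cells Dll1-lineage cells and do not say how the allele drives YFP. Dll1 is also active in the neural tube, so the sort may admit neural cells. SOMA is a mixture by design, since the newest somite, described in the labels as not yet committed, was kept with the unsegmented tissue. SOMC (somites 6 to 9) and SOMD (older somites) continue the series and are used here only as levels beside the 2 groups. The question is which genes differ between the unsegmented tissue and the first formed somites.

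Presomitic mesoderm is the paired strip of unsegmented tissue beside the neural tube, fed at its tail end by the tail bud. Wnt and FGF signals keep its cells immature, an oscillator of the Notch pathway ticks in them, and at the front of the strip a Mesp2-dependent step turns each cycle into a somite boundary. The somite that forms is first an epithelial ball. Its ventral cells then become sclerotome, the source of vertebrae and ribs, under Hedgehog signals from notochord and floor plate, while its dorsal cells become dermomyotome, the source of muscle and dermis.

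Most markers of presomitic mesoderm went with the labels, with 19 of 21 tested called lower in SOMB and Cdx1 and Cyp26a1 not called. Factors of the formed somite did not separate the groups as a list (2 of 14 higher and 2 lower). Msgn1, Tbx6, Mesp2 and Ripply2, which define presomitic mesoderm and its boundary region, had 11.1 to 77.6 CPM in every SOMA library and at most 5.06 CPM in any SOMB library, and Meox1, which marks formed somites and the front of presomitic mesoderm, had 340.1 to 462.6 CPM in all 7. Fgf4, Mixl1 and Eomes, which mark the tail bud or the primitive streak, were too low in both groups to test. Gene counts ran from 14090592 to 28047218 in SOMA and from 14319991 to 25497288 in SOMB. CPM are library-size-normalised read counts, with TMM scaling between libraries. Each library had RNA of both sexes (Xist 284.1 to 995.5 CPM, Ddx3y 33.2 to 52.4 CPM), so a library pools at least 2 embryos. SOMB2 had both the lowest Xist and the highest Ddx3y, and Xist was 743.3 to 995.5 CPM in the other libraries. Whether replicates are separate pools is not stated in the labels, and p-values measure only the spread between these libraries, which may be technical. In bulk RNA, fewer cells of a type and less RNA per cell cannot be told apart.

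The libraries of each group differed from each other in a regular way. SOMA1 and SOMB1 had the largest shares of reads in no annotated gene (12.8 and 12.0% against 7.57 to 10.7% in the other 5). SOMA1 was the lowest SOMA library for 17 of the 19 presomitic mesoderm genes that fell and the highest for 7 of the 8 sclerotome genes that rose. SOMB1 was the highest SOMB library for 12 of those 19 genes, and SOMB2 the lowest for 15 and the highest for 5 of the 8. Over all genes called, SOMA1 was the lowest SOMA library for 272 of the 460 lower and the highest for 223 of the 337 higher. SOMB1 was the highest SOMB library for 185 of the 460 and SOMB2 the lowest for 259. Of the 337 higher, SOMB2 was the highest SOMB library for 117 and the lowest for 95, so its place was not regular there. Libraries with the same number also deviated together (correlations of 0.526, 0.512 and 0.48 over the 3 shared numbers). Of pairs with different numbers, only SOMA4 and SOMB2 had a positive correlation (0.235). A fit with the replicate number as a block, called the blocked fit below, made more calls. SOMB2 is alone in its block, so it does not enter any fold change of the blocked fit. All 797 genes called without the block had the same sign in the SOMA1 and SOMB1 pair as in the other 5 libraries. These are the libraries that gave the calls. The groups did not overlap in 796 of the 797, which fixes that sign in advance, so the agreement is no further support.

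Of 13365 genes tested, 337 were higher in SOMB (2.52%) and 460 lower (3.44%), 5.96% in either direction, by edgeR's quasi-likelihood test at an adjusted p under 0.05. Of these, 186 were higher and 265 lower by at least 2-fold. The count of calls in each list below is to be read beside the shares of 2.52% and 3.44%. The groups did not overlap in 16% of all genes tested and in 796 of the 797 called. The median log2 fold change of all genes tested was 0.0054. The counts rest in part on single libraries. Without SOMA3, 197 genes were higher and 279 lower, and without SOMA4, 166 and 274. In the blocked fit edgeR called 1296 higher and 1231 lower of 13985 tested, and these hold all 337 and all 460. List counts in the blocked fit are to be read beside these larger shares, not beside 2.52% and 3.44%. Several lists are near them. Throughout, a log2 fold change is SOMB minus SOMA ± its standard error, and values by library are in the order SOMA1, SOMA3, SOMA4 and SOMB1, SOMB2, SOMB3, SOMB4. "Rose", "fell" and "called" refer to this test. Where a call was lost in another fit, that fit is named: DESeq2, library totals without scaling, a model term for each library's reads outside genes (the no-feature term), the 5 libraries other than SOMA1 and SOMB1 (the 5-library fit), and all 15 libraries of SOMA to SOMD (the 15-library fit), also with nearly identical pairs of libraries summed.

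**Figure D1:**
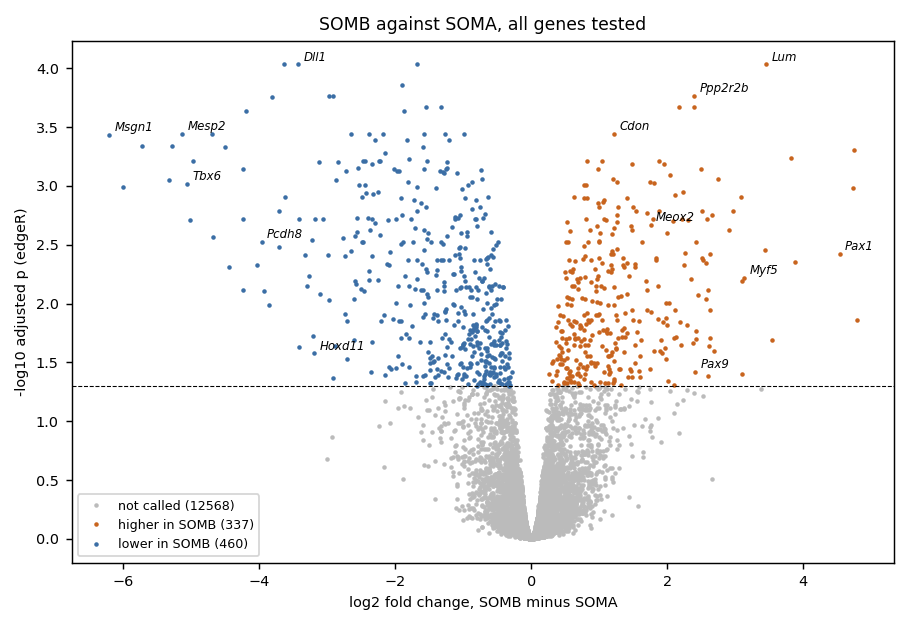
Each point is 1 of the 13365 genes tested, with the log2 fold change (SOMB minus SOMA) on the horizontal axis and the negative log10 of the edgeR adjusted p on the vertical axis; the dashed line is the threshold of 0.05. Among the genes labelled, Msgn1 lies farthest to the left at −6.21 and Pax1 farthest to the right at 4.54, and the 460 genes lower in SOMB outnumber the 337 higher.

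Several genes that fell are known targets of Notch or of Wnt, and the promoters of 4 genes that fell, Lfng, Msgn1, T and, with a smaller change, Sp5, are shown because they hold the short DNA words that the factors of those pathways read. RBPJ, the DNA-binding partner of the Notch receptor, reads the core TGGGAA, and TCF factors, the partners of beta-catenin, read CTTTGAT or CTTTGAA. Both were searched on both strands in the 250 bases before each transcription start (RefSeq, GRCm38.p6). Matches are in capitals, those on the other strand appear as their reverse complement, and no match printed overlaps another. Stretches run 5′ to 3′ on the gene's strand and stop before any annotated exon: Lfng chr5:140607091-140607319 (+), Msgn1 chr12:11208973-11209198 (−), Sp5 chr2:70474673-70474922 (+) and T chr17:8434173-8434422 (+).
Lfng: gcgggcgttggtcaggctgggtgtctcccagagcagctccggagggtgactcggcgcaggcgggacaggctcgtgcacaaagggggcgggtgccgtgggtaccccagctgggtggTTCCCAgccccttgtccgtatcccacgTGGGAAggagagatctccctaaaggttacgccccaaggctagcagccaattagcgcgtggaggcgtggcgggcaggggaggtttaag
Msgn1: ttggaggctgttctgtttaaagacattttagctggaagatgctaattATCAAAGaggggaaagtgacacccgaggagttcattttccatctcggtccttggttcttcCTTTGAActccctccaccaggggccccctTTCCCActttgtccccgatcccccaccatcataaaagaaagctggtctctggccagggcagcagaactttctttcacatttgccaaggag
Sp5: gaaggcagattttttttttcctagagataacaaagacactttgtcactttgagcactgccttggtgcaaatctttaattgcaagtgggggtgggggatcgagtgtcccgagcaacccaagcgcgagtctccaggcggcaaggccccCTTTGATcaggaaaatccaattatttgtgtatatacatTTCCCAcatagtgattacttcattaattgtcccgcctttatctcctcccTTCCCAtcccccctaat
T: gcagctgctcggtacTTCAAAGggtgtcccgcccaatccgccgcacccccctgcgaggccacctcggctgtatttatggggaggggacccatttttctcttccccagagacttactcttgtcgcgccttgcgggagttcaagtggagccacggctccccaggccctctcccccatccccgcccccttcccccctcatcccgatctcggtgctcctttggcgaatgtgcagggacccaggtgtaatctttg
The Lfng stretch holds 2 RBPJ cores, 108 and 135 bases before the start. That of Msgn1 holds 1 RBPJ core (114 bases) and 2 TCF matches (143 and 203 bases), that of Sp5 2 RBPJ cores (17 and 66 bases) and 1 TCF match (104 bases), and that of T 1 TCF match (235 bases). Of the 31 genes called lower in the presomitic mesoderm, Notch and boundary lists, 26 have 32 promoter entries between them, of which 8 hold an RBPJ core and 6 a TCF match. Of all 32851 promoters 21.6% hold the RBPJ core and 7.48% a TCF match. The RBPJ count is near the share of all promoters, so it is not read as a result on these genes. The entries of Nrarp, Notch1, Mesp2, Ripply2 and Tbx6, which also fell, hold neither word. A match is a description of the letters and not a bound site.

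Tail bud and presomitic mesoderm genes fell almost throughout. Of 24 listed, 21 were tested and 19 fell, against 3.44% of all genes, with a median log2 fold change of −2.65 over those tested. Msgn1 (chr12:11208382-11208948), a bHLH factor that commits cells to presomitic mesoderm, had 11.1, 37.5 and 39.2 CPM in SOMA and 0.698, 0.282, 0.199 and 0.282 CPM in SOMB (log2 fold change −6.21 ± 0.54, edgeR adjusted p = 3.66e-04). Tbx6 (chr7:126781483-126785548), the T-box factor that gives paraxial rather than neural fate, had 48.6, 77.6 and 69.9 CPM in SOMA and 5.06, 0.403, 0.997 and 0.916 CPM in SOMB (log2 fold change −5.06 ± 0.56, edgeR adjusted p = 9.64e-04). For both genes every SOMA library was far above every SOMB library, and SOMB1 held the highest of the low SOMB values. T, or brachyury, the T-box factor of the tail bud and notochord, had 25.8, 66.2 and 57.9 CPM in SOMA and 3.14, 1.895, 2.92 and 3.03 CPM in SOMB (log2 fold change −4.19 ± 0.33, edgeR adjusted p = 2.29e-04).

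The caudal factors, which keep the tail bud growing and set posterior identity, gave different results, with Cdx2 and Cdx4 called and Cdx1 not. Cdx4 had 22.9, 89.2 and 65.4 CPM in SOMA and 5.06, 2.66, 3.32 and 7.26 CPM in SOMB (log2 fold change −3.71 ± 0.46, edgeR adjusted p = 0.00164), and Cdx2 had 16.8, 54.7 and 43.3 CPM in SOMA and 4.84, 2.14, 4.39 and 5.78 CPM in SOMB (log2 fold change −3.18 ± 0.41, edgeR adjusted p = 0.00193). In both, SOMA1 was the lowest SOMA library by a wide margin and still lay above all SOMB libraries. Cdx1 had 12.9, 19.5 and 18.3 CPM in SOMA and 8.205, 6.69, 25.9 and 16.9 CPM in SOMB, and its groups overlapped (log2 fold change −0.24 ± 0.41, edgeR adjusted p = 0.9002). Other factors of the tail bud fell with Cdx2 and Cdx4: the homeobox genes Evx1 (log2 fold change −2.49 ± 0.35) and Nkx1-2 (−2.29 ± 0.30), the zinc finger genes Sp5 (−1.04 ± 0.24) and Sp8 (−1.80 ± 0.17), and Greb1 (−1.89 ± 0.24). Cyp26a1, the enzyme that clears retinoic acid from the tail bud, was low in both groups and did not pass (log2 fold change −0.39 ± 0.61, edgeR adjusted p = 0.881). Evx1, Nkx1-2, Sp5, Sp8, Greb1 and Cdx1 were chosen after their values were seen. Sp5 lost its call without SOMA3, SOMA4, SOMB1 or SOMB2 and in the 5-library fit (adjusted p reaching 0.132).

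**Figure D2:**
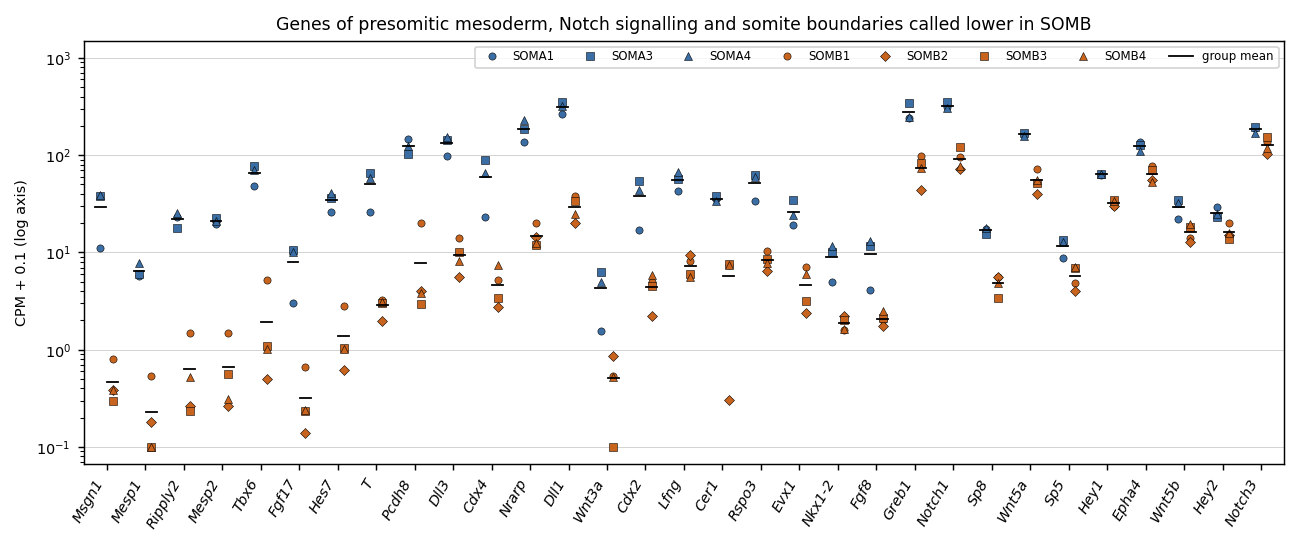
Each point is the level of 1 library (CPM + 0.1, log axis) for the genes called lower in the lists of presomitic mesoderm, Notch signalling and somite boundaries; blue is SOMA, orange SOMB, marker shape the library, and bars are group means. Genes run from the largest fall (Msgn1) on the left to the smallest on the right, and the gap between the groups narrows from left to right.

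Of 21 genes of Notch signalling 9 fell and none rose (median log2 fold change −0.37). Among the ligands, Dll1, which starts signalling and whose allele carries the lineage mark, had 263, 349 and 321 CPM in SOMA and 37.8, 20.1, 33.3 and 24.6 CPM in SOMB (log2 fold change −3.42 ± 0.20, edgeR adjusted p = 9.27e-05). Dll3, which acts inside the cell against Notch signalling, had 98.6, 142 and 155 CPM in SOMA and 13.9, 5.52, 9.91 and 8.103 CPM in SOMB (log2 fold change −3.81 ± 0.27, edgeR adjusted p = 1.76e-04). The SOMB libraries thus kept a low but measurable Dll1 level, below each SOMA library. Of the receptors, Notch1 fell, with 309, 353 and 307 CPM in SOMA and 95.2, 71.2, 120.3 and 77.9 CPM in SOMB (log2 fold change −1.83 ± 0.16, edgeR adjusted p = 4.04e-04), and Notch3 fell less (log2 fold change −0.54 ± 0.13, edgeR adjusted p = 0.0351).

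Modulators and targets of the oscillator also fell, among them Lfng, Hes7 and Nrarp. Lfng, the glycosyltransferase that modifies Notch in each cycle, had 43.1, 56.5 and 66.4 CPM in SOMA and 8.12, 9.35, 5.92 and 5.43 CPM in SOMB (log2 fold change −2.91 ± 0.20, edgeR adjusted p = 1.72e-04). Hes7, the repressor at the core of the clock, had 26.02, 36.1 and 40.3 CPM in SOMA and 2.71, 0.524, 0.931 and 0.916 CPM in SOMB (log2 fold change −4.69 ± 0.40, edgeR adjusted p = 3.60e-04), and Nrarp, a feedback inhibitor of the Notch transcription complex, had 138, 186 and 227 CPM in SOMA and 19.8, 14.3, 11.8 and 12.5 CPM in SOMB (log2 fold change −3.64 ± 0.21, edgeR adjusted p = 9.27e-05). None of these 3 genes overlapped between the groups. The Hey repressors fell by less, Hey1 by a log2 fold change of −0.99 ± 0.082 (edgeR adjusted p = 3.60e-04) and Hey2 of −0.66 ± 0.14 (edgeR adjusted p = 0.0251). Hes1, a repressor found in many tissues, had 50.4, 60.4 and 37.9 CPM in SOMA and 44.9, 39.3, 62.95 and 39.1 CPM in SOMB and overlapped (log2 fold change −0.091 ± 0.20, edgeR adjusted p = 0.931). The sign of the Hes1 difference turned without SOMA3 and with the no-feature share (reads in no annotated gene) as a term. Notch3 lost its call without SOMA1, SOMA3, SOMA4, SOMB1 or SOMB4, with unscaled totals and in the 5-library fit (adjusted p reaching 0.142), as Hey2 did without SOMA1, SOMA4, SOMB2, SOMB3 or SOMB4 (adjusted p reaching 0.0868). Notch1, Notch3, Hey1, Hey2 and Hes1 were chosen after their values were seen.

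Mesp2, Mesp1 and Ripply2, which act where the somite boundary forms, were low in every SOMB library. Mesp2 (chr7:79810727-79813431), the bHLH factor that sets the boundary and the anterior side of the somite, had 19.6, 22.4 and 20.9 CPM in SOMA and 1.397, 0.161, 0.465 and 0.211 CPM in SOMB (log2 fold change −5.14 ± 0.44, edgeR adjusted p = 3.60e-04). Its relative Mesp1 had 5.58, 5.89 and 7.67 CPM in SOMA and 0.436, 0.0806, 0 and 0 CPM in SOMB (log2 fold change −5.33 ± 0.58, edgeR adjusted p = 8.96e-04), and Ripply2 (chr9:87015537-87020441), the repressor that switches Mesp2 off, had 22.8, 17.7 and 25.5 CPM in SOMA and 1.397, 0.161, 0.133 and 0.423 CPM in SOMB (log2 fold change −5.28 ± 0.48, edgeR adjusted p = 4.61e-04). In SOMB these 3 genes were highest in SOMB1. Ripply1, which acts with Ripply2, had 6.44, 4.399 and 4.95 CPM in SOMA and 3.14, 4.84, 2.59 and 4.72 CPM in SOMB and did not pass (log2 fold change −0.47 ± 0.25, edgeR adjusted p = 0.446, and 0.0391 in the blocked fit).

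In all, 7 of 15 boundary and polarity genes fell and 1 rose (median log2 fold change −0.70). Pcdh8, or PAPC, a protocadherin of the forming boundary, had 145, 102 and 123 CPM in SOMA and 19.9, 3.95, 2.86 and 3.73 CPM in SOMB (log2 fold change −3.96 ± 0.56, edgeR adjusted p = 0.002996); SOMB1 again stood above the other SOMB libraries. Cer1, a secreted inhibitor expressed in the newest somites, had 35.5, 37.8 and 33.7 CPM in SOMA and 7.38, 0.202, 7.45 and 7.398 CPM in SOMB (log2 fold change −2.71 ± 0.61, edgeR adjusted p = 0.0296), with SOMB2 far below the rest. Of the factors that divide a formed somite, Uncx, of its posterior side, rose (18.9, 12.4 and 10.02 CPM in SOMA and 38.2, 36.1, 57.2 and 41.99 CPM in SOMB, log2 fold change 1.63 ± 0.23, edgeR adjusted p = 0.002996). Tbx18, of its anterior side, had 16.4, 8.94 and 7.97 CPM in SOMA and 21.95, 20.9, 19.2 and 18.7 CPM in SOMB without overlap and did not pass (log2 fold change 0.84 ± 0.23, edgeR adjusted p = 0.0626). It passed in the blocked fit (edgeR adjusted p = 0.00118), which called 3 higher and 10 lower of this list. Cer1 was chosen after its values were seen. Cer1 lost its call without SOMA1, SOMA3, SOMA4, SOMB1 or SOMB4, with DESeq2 and in the 5-library fit (adjusted p reaching 0.133). Tbx18 passed without SOMA1, with the no-feature term and in the 5-library fit (edgeR adjusted p = 0.00109 with the library left out). It also passed with DESeq2, in both 15-library fits and without the filter on low counts.

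Sclerotome factors rose. Of 14 tested, 8 rose and 1 fell, against 2.52% and 3.44% of all genes, with a median log2 fold change of 1.46. The gene that fell is Foxc2, described below. Pax1 (chr2:147361930-147375049), the paired-box factor of early sclerotome, had 5.37, 0.922 and 0.362 CPM in SOMA and 56.1, 106, 37.2 and 40.5 CPM in SOMB (log2 fold change 4.54 ± 0.67, edgeR adjusted p = 0.00376). SOMA1, with 5.37 CPM, was the highest SOMA library, and SOMB2 the highest SOMB library. Pax9 (chr12:56691693-56712824), which acts with Pax1 in the vertebral column, had 2.91, 0.639 and 0.604 CPM in SOMA and 9.95, 12.7, 4.06 and 5.496 CPM in SOMB (log2 fold change 2.41 ± 0.57, edgeR adjusted p = 0.03801). Its log2 fold change was 3.70 without SOMA1. Sox9, the factor that starts cartilage, had 9.84, 4.68 and 5.37 CPM in SOMA and 26.4, 42.3, 21.8 and 16.2 CPM in SOMB (log2 fold change 1.98 ± 0.36, edgeR adjusted p = 0.00998). In each of these 3 genes SOMA1 and SOMB2 led their groups.

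Nkx3-2, or Bapx1, which acts after Pax1 and Pax9 in the sclerotome, rose, as did forkhead factors. It had 0.624, 0.142 and 0.241 CPM in SOMA and 2.66, 3.105, 1.73 and 1.69 CPM in SOMB (log2 fold change 2.60 ± 0.45, edgeR adjusted p = 0.00772), so it was low in all 7 libraries. Foxd1, a forkhead factor, had 28.1, 20.9 and 17.7 CPM in SOMA and 53.9, 43.9, 59.2 and 50.9 CPM in SOMB (log2 fold change 1.21 ± 0.16, edgeR adjusted p = 0.00229), and its relative Foxd2 had 9.84, 3.97 and 3.68 CPM in SOMA and 28.1, 29.4, 33.1 and 29.7 CPM in SOMB (log2 fold change 2.31 ± 0.30, edgeR adjusted p = 0.00194). Fst, or follistatin, a secreted inhibitor of activins and BMPs, had 20.4, 24.7 and 26.1 CPM in SOMA and 47.9, 50.4, 60.2 and 71.6 CPM in SOMB (log2 fold change 1.28 ± 0.16, edgeR adjusted p = 0.00151). The list also holds Uncx, given above, and Zic1, which had 1.66, 0.142 and 0.362 CPM in SOMA and 9.34, 19.7, 3.26 and 2.396 CPM in SOMB without overlap and did not pass (log2 fold change 3.38 ± 0.87, edgeR adjusted p = 0.05302, and 1.22e-05 in the blocked fit). Zic1 was chosen after its values were seen. Pax9 lost its call without SOMA3, SOMA4, SOMB1, SOMB2 or SOMB4, with unscaled totals and with the no-feature term (adjusted p reaching 0.128), as Sox9 did without SOMA4 (adjusted p reaching 0.0501). Zic1 passed without SOMA1, SOMB3 or SOMB4 (edgeR adjusted p up to 0.0393). DESeq2, both 15-library fits and the fit without the filter on low counts called it too.

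Factors of the formed somite as a whole moved in both directions. Of 14 tested, 2 rose and 2 fell (median log2 fold change 0.18). Meox2, a homeobox factor of somites, rose (12.96, 7.52 and 6.34 CPM in SOMA and 27.5, 37.4, 30.1 and 28.3 CPM in SOMB, log2 fold change 1.76 ± 0.23, edgeR adjusted p = 0.00214). Meox1, its partner in somite patterning, had 412, 351 and 418 CPM in SOMA and 340.1, 401, 459.9 and 463 CPM in SOMB and overlapped (log2 fold change 0.079 ± 0.12, edgeR adjusted p = 0.879), as did Tcf15, or paraxis, which somites need to become epithelial (74.7, 59.7 and 68.8 CPM in SOMA and 47.7, 42.8, 70.6 and 70.8 CPM in SOMB, log2 fold change −0.23 ± 0.18, edgeR adjusted p = 0.684). The forkhead factors of paraxial mesoderm fell, Foxc1 from 126.1 to 153.6 CPM in SOMA to 70.1 to 96.7 CPM in SOMB (log2 fold change −0.73 ± 0.12, edgeR adjusted p = 0.00647) and Foxc2 from 111.3 to 142.6 CPM to 77.7 to 99.5 CPM (log2 fold change −0.52 ± 0.11, edgeR adjusted p = 0.0226).

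For 3 other factors SOMA1 stood within or near the SOMB range. Twist1, a bHLH factor of mesenchyme, had 155, 80.4 and 77.1 CPM in SOMA and 232, 229, 168 and 176 CPM in SOMB (log2 fold change 0.95 ± 0.24, edgeR adjusted p = 0.0515). Aldh1a2, the enzyme that makes retinoic acid in somites, had 243, 124 and 115 CPM in SOMA and 199, 241, 219 and 192 CPM in SOMB (log2 fold change 0.40 ± 0.23, edgeR adjusted p = 0.497), and Pax3, the paired-box factor of dermomyotome and its precursors, had 57.9, 35.8 and 35.98 CPM in SOMA and 49.9, 48.9, 61.6 and 51.1 CPM in SOMB (log2 fold change 0.28 ± 0.17, edgeR adjusted p = 0.535). Without SOMA1 all 3 passed (edgeR adjusted p = 0.00147, 0.00315 and 0.0264). Twist1 also passed with DESeq2, the block or the no-feature term, in both 15-library fits and without the filter on low counts. Twist1 and Aldh1a2 passed in the 5-library fit. Over single left-out libraries the list held 7 higher without SOMA1 and 1 lower without SOMA1, SOMA4, SOMB1 or SOMB4, and the blocked fit called 5 higher and 3 lower. Twist1 was chosen after its values were seen. Foxc2 lost its call without SOMA1, SOMA4, SOMB1 or SOMB4 and in the 5-library fit (adjusted p reaching 0.178).

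**Figure D3:**
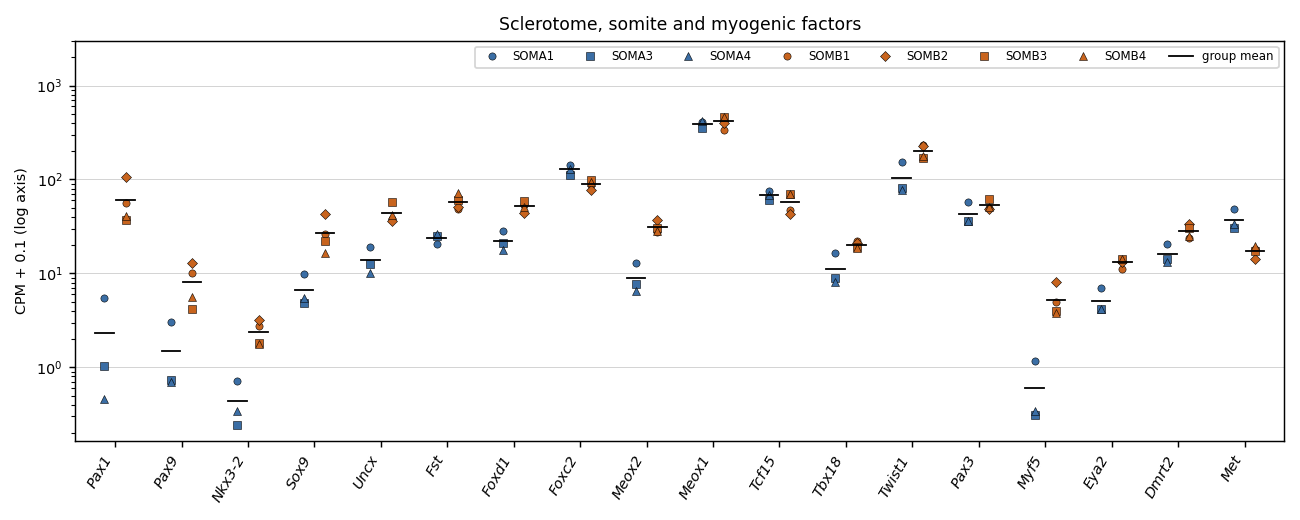
Each point is the level of 1 library (CPM + 0.1, log axis) for 18 factors of sclerotome, somite and muscle precursors; blue is SOMA, orange SOMB, marker shape the library, and bars are group means. Pax1 shows the widest gap, Meox1, Tcf15 and Pax3 overlap, and SOMA1 (blue circles) is the highest SOMA library for most genes shown.

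Of 12 genes of dermomyotome and early muscle 3 rose and 1 fell (median log2 fold change 0.30). Myf5 (chr10:107482908-107486927), the first muscle regulatory factor, had 1.07, 0.213 and 0.241 CPM in SOMA and 4.89, 7.94, 3.92 and 3.66 CPM in SOMB (log2 fold change 3.13 ± 0.51, edgeR adjusted p = 0.00604). The later regulatory factor Myod1 was too low to test, as were Myog and Myf6. Eya2, a transcriptional coactivator, had 6.89, 4.04 and 4.05 CPM in SOMA and 10.9, 13.02, 14.2 and 14.02 CPM in SOMB (log2 fold change 1.35 ± 0.21, edgeR adjusted p = 0.00469), and Dmrt2, a factor of the dermomyotome that acts upstream of Myf5, had 20.4, 14.05 and 13.1 CPM in SOMA and 23.9, 33.8, 29.98 and 24.8 CPM in SOMB (log2 fold change 0.82 ± 0.18, edgeR adjusted p = 0.0277). Met, the receptor that migrating muscle precursors use, fell (48.1, 30.6 and 33.1 CPM in SOMA and 18.02, 14.3, 17.4 and 19.3 CPM in SOMB, log2 fold change −1.12 ± 0.17, edgeR adjusted p = 0.00386). With the block edgeR called 6 higher and 2 lower.

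Of 11 tested genes of tendon precursors and muscle structure only Myl1, a myosin light chain gene, passed, and it fell from 2.18 to 3.5 CPM in SOMA to 0.121 to 0.532 CPM in SOMB (log2 fold change −3.06 ± 0.40, edgeR adjusted p = 0.00193). The list's median log2 fold change was −0.029, and the blocked fit called 0 higher and 3 lower. Scx, the tendon factor of the syndetome, stayed near 1 CPM with overlapping groups (log2 fold change −0.33 ± 0.33, edgeR adjusted p = 0.791). Dmrt2 lost its call without SOMA3, SOMA4, SOMB2 or SOMB3 and in both 15-library fits (adjusted p reaching 0.118).

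Among genes of Hedgehog signalling, those called higher are mostly of cell-surface proteins that bind the ligand. Of 16 tested, 5 rose and none fell (median log2 fold change 0.34). The co-receptor genes rose together. Cdon had 42.7, 36.97 and 35.9 CPM in SOMA and 89.9, 85.8, 102 and 80.7 CPM in SOMB (log2 fold change 1.21 ± 0.10, edgeR adjusted p = 3.60e-04), Gas1 had 167, 98.6 and 116 CPM in SOMA and 256, 234, 219.6 and 236 CPM in SOMB (log2 fold change 0.89 ± 0.16, edgeR adjusted p = 0.00955), and Boc had 30.5, 24.8 and 20.5 CPM in SOMA and 47.8, 41.4, 67.01 and 49.5 CPM in SOMB (log2 fold change 1.02 ± 0.18, edgeR adjusted p = 0.00987). Hhip, a target of the pathway that binds and holds back the ligand, had 8.18, 5.46 and 3.74 CPM in SOMA and 22.6, 21.01, 20.9 and 17.1 CPM in SOMB (log2 fold change 1.79 ± 0.23, edgeR adjusted p = 0.00193). The fifth is Foxd1, given above.

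The targets Gli1 and Ptch1, and the activator Gli2, were less separated. Gli1, the transcription factor induced by the pathway, had 87.5, 50.4 and 34.1 CPM in SOMA and 107, 70.7, 90.7 and 74.8 CPM in SOMB (log2 fold change 0.57 ± 0.28, edgeR adjusted p = 0.368), and SOMA1 lay above 2 of the 4 SOMB libraries. Ptch1, the receptor and target, had 145, 161 and 142 CPM in SOMA and 208, 134, 242 and 182 CPM in SOMB (log2 fold change 0.36 ± 0.17, edgeR adjusted p = 0.356), with SOMB2 below every SOMA library. Gli2, the main activator, had 68.5, 62.2 and 48.4 CPM in SOMA and 88.3, 71.8, 113 and 82.2 CPM in SOMB without overlap (log2 fold change 0.57 ± 0.17, edgeR adjusted p = 0.0843). All 3 passed in the blocked fit (0.00106, 2.93e-05 and 1.60e-04 in edgeR adjusted p), in which 9 higher and none lower of this list were called. SOMB2 is alone in its block and does not enter that fold change. Boc and Gli2 were chosen after their values were seen. Gas1 lost its call without SOMA4 (adjusted p reaching 0.0501). Gli1 passed without SOMA1, with the no-feature term and in the 5-library fit (edgeR adjusted p = 0.0214 with the library left out). Ptch1 passed without SOMB2 (edgeR adjusted p = 0.0317). Gli2 passed without SOMB2 and with the no-feature term (edgeR adjusted p = 0.0444 with the library left out). DESeq2, both 15-library fits and the fit without the filter on low counts called Gli2 too.

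FGF ligands and the feedback genes that FGF signalling induces were called lower more often than higher. Of 13 tested ligand and receptor genes 8 fell and 1 rose (median log2 fold change −0.77). Fgf8, the main ligand of presomitic mesoderm, had 4.02, 11.5 and 12.98 CPM in SOMA and 1.92, 1.65, 1.99 and 2.396 CPM in SOMB (log2 fold change −2.25 ± 0.37, edgeR adjusted p = 0.00624). Fgf17, its relative, had 2.94, 10.5 and 9.901 CPM in SOMA and 0.567, 0.0403, 0.133 and 0.141 CPM in SOMB (log2 fold change −5.01 ± 0.65, edgeR adjusted p = 0.00194), and Fgf3 had 4.47, 9.79 and 9.36 CPM in SOMA and 0.436, 0.242, 0.133 and 0.564 CPM in SOMB (log2 fold change −4.50 ± 0.41, edgeR adjusted p = 4.66e-04). For each of the 3, SOMA1 was the lowest SOMA library. Fgf18, a ligand of somites, fell by less (40.9, 34.6 and 38.4 CPM in SOMA and 18.2, 15.5, 23.8 and 23.9 CPM in SOMB, log2 fold change −0.91 ± 0.15, edgeR adjusted p = 0.007298), as did Fgf13, an FGF family member that is not secreted (log2 fold change −0.77 ± 0.12, edgeR adjusted p = 0.00601).

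Of the FGF receptors, Fgfr3 rose. Fgfr1, the receptor of presomitic mesoderm, had 271, 239 and 245 CPM in SOMA and 199.7, 146, 211 and 180.4 CPM in SOMB without overlap and did not pass (log2 fold change −0.45 ± 0.12, edgeR adjusted p = 0.0625, and 5.76e-04 in the blocked fit). Fgfr3 had 12.1, 6.81 and 5.37 CPM in SOMA and 22.8, 15.4, 18.4 and 20.8 CPM in SOMB (log2 fold change 1.23 ± 0.26, edgeR adjusted p = 0.0218). Of 15 targets and feedback inhibitors 7 fell and none rose (median log2 fold change −0.56). Spry4 had 21.6, 24.9 and 23.8 CPM in SOMA and 9.82, 7.096, 6.51 and 4.58 CPM in SOMB (log2 fold change −1.72 ± 0.21, edgeR adjusted p = 0.00132), and Spry2, a second Sprouty inhibitor, had 44.6, 42.4 and 40.5 CPM in SOMA and 24.4, 16.2, 23.9 and 19.2 CPM in SOMB (log2 fold change −1.03 ± 0.14, edgeR adjusted p = 0.00249). Il17rd, or Sef, which blocks the pathway at the membrane, fell by a log2 fold change of −1.30 ± 0.14, and the ETS factors Etv5 and Etv4 by −0.87 ± 0.11 and −0.96 ± 0.16 (edgeR adjusted p from 7.61e-04 to 0.007196). Dusp6, the phosphatase of ERK, had 209.8, 186 and 178 CPM in SOMA and 150.2, 158, 166 and 124 CPM in SOMB (log2 fold change −0.36 ± 0.11, edgeR adjusted p = 0.0965, and 8.88e-04 in the blocked fit). The blocked fit called 3 higher and 9 lower of the first list and 2 higher and 9 lower of the second. Fgf18, Fgfr1, Fgfr3, Etv4 and Dusp6 were chosen after their values were seen. Fgf18 lost its call in the 5-library fit (adjusted p reaching 0.0761), as Fgfr3 did without SOMA3, SOMA4, SOMB1 or SOMB4 (adjusted p reaching 0.0905). Fgfr1 passed without SOMB2 or SOMB3 and with the no-feature term (edgeR adjusted p up to 0.0443 with the library left out). With DESeq2 both Fgfr1 and Dusp6 passed, and Fgfr1 did in both 15-library fits and without the filter on low counts.

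Wnt genes moved in both directions, with 8 of 38 ligand, receptor and modulator genes higher and 7 lower (median log2 fold change 0.29). Those that fell include ligands and an agonist of the tail bud. Wnt3a, the canonical ligand of the tail bud, had 1.46, 6.24 and 4.83 CPM in SOMA and 0.436, 0.766, 0 and 0.423 CPM in SOMB (log2 fold change −3.20 ± 0.65, edgeR adjusted p = 0.0187). Wnt5a, a non-canonical ligand, had 163, 169 and 159 CPM in SOMA and 72.01, 39.7, 52.2 and 56.01 CPM in SOMB (log2 fold change −1.57 ± 0.16, edgeR adjusted p = 7.11e-04), and Rspo3, a secreted agonist, had 33.4, 61.9 and 59.8 CPM in SOMA and 10.2, 6.41, 8.51 and 7.61 CPM in SOMB (log2 fold change −2.65 ± 0.23, edgeR adjusted p = 3.60e-04). Wnt5b and the receptor gene Fzd10 fell as well (log2 fold change −0.88 ± 0.19 and −0.81 ± 0.10, edgeR adjusted p = 0.0277 and 0.00193).

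Those that rose include receptors and secreted inhibitors. Ror1, a receptor tyrosine kinase that binds Wnt5a, had 4.78, 3.26 and 3.08 CPM in SOMA and 10.1, 8.99, 12.7 and 10.6 CPM in SOMB (log2 fold change 1.48 ± 0.20, edgeR adjusted p = 0.00235), and Fzd4 had 16.5, 17.8 and 11.5 CPM in SOMA and 31.2, 30.3, 43.8 and 35.7 CPM in SOMB (log2 fold change 1.20 ± 0.18, edgeR adjusted p = 0.00376). The secreted frizzled-related inhibitors Sfrp1 and Sfrp2 rose by a log2 fold change of 0.58 ± 0.11 and 0.40 ± 0.078 (edgeR adjusted p = 0.0148 and 0.0143). Without SOMA4, 4 Wnt genes were called higher; the blocked fit called 16 higher and 11 lower. Ror1, Fzd4, Sfrp1, Sfrp2 and Wnt5b were chosen after their values were seen. Wnt3a lost its call without SOMA3, SOMA4, SOMB1 or SOMB4 (adjusted p reaching 0.0739), as Wnt5b did without SOMA3, SOMA4, SOMB1 or SOMB2 (adjusted p reaching 0.122). Sfrp1 and Sfrp2 lost their calls without SOMA3 or SOMA4 (adjusted p reaching 0.08797).

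Of 16 targets of canonical Wnt signalling 4 fell and 1 rose (median log2 fold change −0.26). Dkk1, a secreted inhibitor that the pathway induces, had 7.48, 13.5 and 17.5 CPM in SOMA and 2.05, 1.57, 1.66 and 1.83 CPM in SOMB (log2 fold change −2.83 ± 0.28, edgeR adjusted p = 6.21e-04). Lef1, a TCF family factor, had 151, 221 and 186 CPM in SOMA and 69.2, 42.1, 86.4 and 59.7 CPM in SOMB (log2 fold change −1.53 ± 0.21, edgeR adjusted p = 0.00283), and Nkd2, a feedback inhibitor, had 75.7, 95.4 and 109 CPM in SOMA and 33.7, 38.4, 29.3 and 26.99 CPM in SOMB (log2 fold change −1.53 ± 0.15, edgeR adjusted p = 6.17e-04). The fourth is Sp5, whose promoter is printed above, with 8.63, 13.2 and 12.7 CPM in SOMA and 4.71, 3.87, 6.85 and 7.05 CPM in SOMB (log2 fold change −1.04 ± 0.24, edgeR adjusted p = 0.0324). Axin2, the most widely used readout of the pathway, had 88.04, 101 and 89.5 CPM in SOMA and 75.5, 55.6, 82.96 and 74.5 CPM in SOMB without overlap and did not pass (log2 fold change −0.37 ± 0.13, edgeR adjusted p = 0.168, and 0.00253 in the blocked fit). Myc, which many signals induce, rose (59.1, 53.4 and 54.9 CPM in SOMA and 80.04, 78.9, 97.2 and 94.3 CPM in SOMB, log2 fold change 0.65 ± 0.099, edgeR adjusted p = 0.00431). In the blocked fit edgeR called 4 higher and 7 lower. Axin2 passed in the 15-library fit as well, though not with pairs summed.

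Retinoic acid made by somites opposes FGF and Wnt in the presomitic mesoderm. Of 18 retinoid genes 2 rose and 1 fell, against 2.52% and 3.44% of all genes (median log2 fold change −0.053). Rdh10, which makes the precursor of retinoic acid, had 36.7, 23.1 and 22.9 CPM in SOMA and 54.5, 43.7, 65.2 and 64.5 CPM in SOMB (log2 fold change 1.03 ± 0.20, edgeR adjusted p = 0.0139), and Dhrs3, which reverses that step, had 4.75, 6.03 and 4.65 CPM in SOMA and 8.205, 10.2, 12.2 and 9.09 CPM in SOMB (log2 fold change 0.95 ± 0.18, edgeR adjusted p = 0.0124). Of the receptors, Rarg fell (73.7, 89.1 and 81.9 CPM in SOMA and 50.4, 35.3, 53.6 and 46.4 CPM in SOMB, log2 fold change −0.81 ± 0.14, edgeR adjusted p = 0.00718), while Rarb, a target of retinoic acid itself, had 28.4, 17.7 and 20.2 CPM in SOMA and 37.3, 46.5, 33.6 and 29.7 CPM in SOMB without overlap and did not pass (log2 fold change 0.73 ± 0.19, edgeR adjusted p = 0.056, and 7.38e-04 in the blocked fit). Rarb was chosen after its values were seen. Rdh10 lost its call without SOMA3 or SOMA4 (adjusted p reaching 0.0639), as Dhrs3 did without SOMA4 and in the 5-library fit (adjusted p reaching 0.0628). Rarb passed without SOMA1 and in the 5-library fit (edgeR adjusted p = 0.0152 with the library left out). DESeq2, both 15-library fits and the fit without the filter on low counts called Rarb too. The list held 0 higher without SOMA4, 1 higher without SOMA3 and 4 higher without SOMA1, and 4 higher and 3 lower in the blocked fit.

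Of 32 genes of BMP signalling 6 rose and 2 fell (median log2 fold change 0.074). Bmp3, which opposes other BMPs, had 9.01, 7.02 and 8.51 CPM in SOMA and 14.2, 16.4, 18.4 and 17.8 CPM in SOMB (log2 fold change 1.02 ± 0.14, edgeR adjusted p = 0.002498), and the ligand gene Bmp5 had 12.99, 8.51 and 7.73 CPM in SOMA and 23, 18.8, 25.3 and 22.2 CPM in SOMB (log2 fold change 1.17 ± 0.19, edgeR adjusted p = 0.00544). Gdf6, another ligand, rose from a very low level (0.243, 0.213 and 0.664 CPM in SOMA and 2.18, 1.81, 1.73 and 1.69 CPM in SOMB, log2 fold change 2.35 ± 0.38, edgeR adjusted p = 0.00614), and so did Bmper, a secreted BMP-binding protein (log2 fold change 1.22 ± 0.21, edgeR adjusted p = 0.00724). Grem1, a secreted BMP antagonist, fell (19.02, 15.9 and 19.1 CPM in SOMA and 9.08, 7.22, 11.3 and 7.82 CPM in SOMB, log2 fold change −1.03 ± 0.16, edgeR adjusted p = 0.00487), and Bambi, a pseudoreceptor, did too (log2 fold change −0.65 ± 0.12, edgeR adjusted p = 0.00982). The antagonist Nog overlapped between the groups (log2 fold change 0.12 ± 0.23, edgeR adjusted p = 0.918), and so did the target Id1 (59.1, 71.7 and 64.6 CPM in SOMA and 61.5, 86.2, 95.3 and 75.2 CPM in SOMB, log2 fold change 0.29 ± 0.14, edgeR adjusted p = 0.386, and 0.0324 in the blocked fit). Id2, an Id family member, rose slightly (log2 fold change 0.53 ± 0.13, edgeR adjusted p = 0.0472). With the block edgeR called 10 higher and 6 lower. Gdf6, Bmper, Bambi and Id2 were chosen after their values were seen. Gdf6 lost its call in the 5-library fit (adjusted p reaching 0.0734), as Id2 did without SOMA3, SOMA4, SOMB1 or SOMB4, with unscaled totals, with the no-feature term and in the 5-library fit (adjusted p reaching 0.199).

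Hox genes, which give each body level its identity, were mostly lower in SOMB, and the pattern differed along the clusters. All 15 tested genes of paralogue groups 1 to 5 had a lower level in SOMB and 5 of them passed (median log2 fold change −0.43). Hoxb1 had 55.5, 63.3 and 71.3 CPM in SOMA and 21.4, 17.2, 25.5 and 21 CPM in SOMB (log2 fold change −1.58 ± 0.14, edgeR adjusted p = 3.60e-04), and Hoxd1 had 40.6, 42.3 and 43.2 CPM in SOMA and 15.9, 8.31, 14.6 and 15.99 CPM in SOMB (log2 fold change −1.62 ± 0.20, edgeR adjusted p = 0.001399). The neighbours of Hoxd1 in the HoxD cluster, Hoxd3 and Hoxd4, fell by a log2 fold change of −0.89 ± 0.18 and −0.87 ± 0.17 (edgeR adjusted p = 0.0201 and 0.0175), and Hoxc5 by −0.49 ± 0.12 (edgeR adjusted p = 0.0466). The list held 2 lower without SOMA3 and 3 lower without SOMA1 or SOMB4, and 13 lower in the blocked fit. Hoxc5 was chosen after its values were seen. Hoxd3 lost its call without SOMA1, SOMA3 or SOMB4 and in the 5-library fit (adjusted p reaching 0.0753), as Hoxd4 did without SOMA1 or SOMA3 (adjusted p reaching 0.0631). Hoxc5 lost its call without SOMA1, SOMA3, SOMA4, SOMB1, SOMB2 or SOMB4, with unscaled totals, in the 15-library fit with pairs summed, with the no-feature term and in the 5-library fit (adjusted p reaching 0.211).

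Of 8 tested genes of groups 6 to 8, Hoxd8 fell (31.9, 33.1 and 32.8 CPM in SOMA and 27.02, 17.9, 14.4 and 17.1 CPM in SOMB, log2 fold change −0.76 ± 0.18, edgeR adjusted p = 0.0395), and the list's median log2 fold change was −0.030. Hoxb8 had 43.1, 61.9 and 52.9 CPM in SOMA and 67.9, 63.8, 85.4 and 83.6 CPM in SOMB without overlap and did not pass (log2 fold change 0.52 ± 0.15, edgeR adjusted p = 0.0789, and 2.15e-05 in the blocked fit, which called 1 higher and 2 lower). Hoxb8 was chosen after its values were seen. It passed with DESeq2, in both 15-library fits and without the filter on low counts. Hoxd8 lost its call without SOMA1, SOMA3, SOMA4, SOMB2, SOMB3 or SOMB4, with unscaled totals, in both 15-library fits and with the no-feature term (adjusted p reaching 0.141).

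Genes of groups 9 to 13, which pattern lumbar, sacral and tail levels, showed the largest Hox differences and the largest spread. Of 13 tested, 11 had a lower level in SOMB and 3 of them passed, 1 rose, and the median log2 fold change was −1.78. Hoxd11 (chr2:74679558-74687016) had 50.5, 30.4 and 31.7 CPM in SOMA and 10.9, 3.47, 0.598 and 0.423 CPM in SOMB (log2 fold change −3.19 ± 0.70, edgeR adjusted p = 0.0265), and Hoxc11 had 12.7, 5.53 and 5.92 CPM in SOMA and 2.97, 0.645, 0.266 and 0.0705 CPM in SOMB (log2 fold change −2.91 ± 0.71, edgeR adjusted p = 0.0433). In both, SOMB1 and SOMB2 lay above SOMB3 and SOMB4, and SOMA1 was the highest SOMA library. Hoxa9 fell by less (79.4, 81.95 and 75.2 CPM in SOMA and 65.6, 51.5, 36.2 and 43.6 CPM in SOMB, log2 fold change −0.68 ± 0.17, edgeR adjusted p = 0.04796). Hoxb9 went the other way (117, 207 and 145 CPM in SOMA and 245, 242, 323 and 383 CPM in SOMB, log2 fold change 0.94 ± 0.22, edgeR adjusted p = 0.03399).

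None of the other 9 posterior genes passed, and 8 of them had a lower level in SOMB. Hoxa10 had 121, 69.5 and 77.9 CPM in SOMA and 53.3, 40.9, 11.1 and 9.72 CPM in SOMB (log2 fold change −1.62 ± 0.52, edgeR adjusted p = 0.123), Hoxc10 had 142, 122 and 152 CPM in SOMA and 73.1, 75.5, 24 and 17.8 CPM in SOMB (log2 fold change −1.53 ± 0.44, edgeR adjusted p = 0.0807), and Hoxd13 had 80.2, 29.5 and 24.6 CPM in SOMA and 19.6, 1.81, 0.332 and 0.352 CPM in SOMB (log2 fold change −2.94 ± 0.97, edgeR adjusted p = 0.137). In these 3 genes SOMB1 and SOMB2 again lay above SOMB3 and SOMB4. Hoxd12 had 12.9, 3.62 and 1.15 CPM in SOMA and 2.66, 0.0403, 0 and 0 CPM in SOMB, and SOMB1 lay above SOMA4 (log2 fold change −2.996 ± 1.14, edgeR adjusted p = 0.211). Hoxd9, Hoxd10, Hoxa11 and Hoxa13 had log2 fold changes of −0.70 ± 0.19, −1.78 ± 0.50, −1.95 ± 0.55 and −2.08 ± 0.63 (edgeR adjusted p = 0.0706, 0.0765, 0.0777 and 0.103). Each of these 8 genes passed in the blocked fit (edgeR adjusted p from 1.20e-04 for Hoxa10 to 0.00527 for Hoxd9), which called 11 of the list lower and 1 higher. SOMB2 does not enter those fold changes. The ninth, Hoxc9, overlapped between the groups (log2 fold change 0.15 ± 0.26, edgeR adjusted p = 0.898), and its sign turned in the blocked fit and without SOMB2.

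The list held 0 lower without SOMA1, SOMA3, SOMA4 or SOMB2, 1 lower without SOMB3 or SOMB4 and 8 lower without SOMB1. Hoxd11 lost its call without SOMA1, SOMA3, SOMA4 or SOMB2 (adjusted p reaching 0.0706), as Hoxc11 did without SOMA1, SOMA3, SOMA4, SOMB2, SOMB3 or SOMB4, with unscaled totals and with DESeq2 (adjusted p reaching 0.1404). Hoxa9 lost its call without SOMA1, SOMA3, SOMA4, SOMB2, SOMB3 or SOMB4, with unscaled totals, in both 15-library fits and with the no-feature term (adjusted p reaching 0.296), as Hoxb9 did without SOMA1, SOMA4, SOMB3 or SOMB4, with the no-feature term and in the 5-library fit (adjusted p reaching 0.131). Without SOMB1 the log2 fold changes of Hoxc11, Hoxd12 and Hoxd13 were −4.43, −7.92 and −5.54. Hoxd10 and Hoxa11 passed without SOMB1 (edgeR adjusted p = 0.0376 and 0.0178). Without the filter on low counts Hoxd9, Hoxc10, Hoxd10 and Hoxa11 passed, and Hoxd9 also did with DESeq2. Hoxa13 passed without SOMB1, with the no-feature term and in the 5-library fit (edgeR adjusted p = 0.00478 with the library left out). Hoxd12 and Hoxd13 passed without SOMB1 and in the 5-library fit (edgeR adjusted p = 0.0129 and 0.00302 with the library left out). The 8 genes that did not pass, other than Hoxd9, were chosen after their values were seen. None of 9 Meis, Pbx and Pknox genes, whose proteins bind DNA with Hox proteins, passed edgeR (median log2 fold change 0.16, and 3 higher and 2 lower in the blocked fit).

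**Figure D4:**
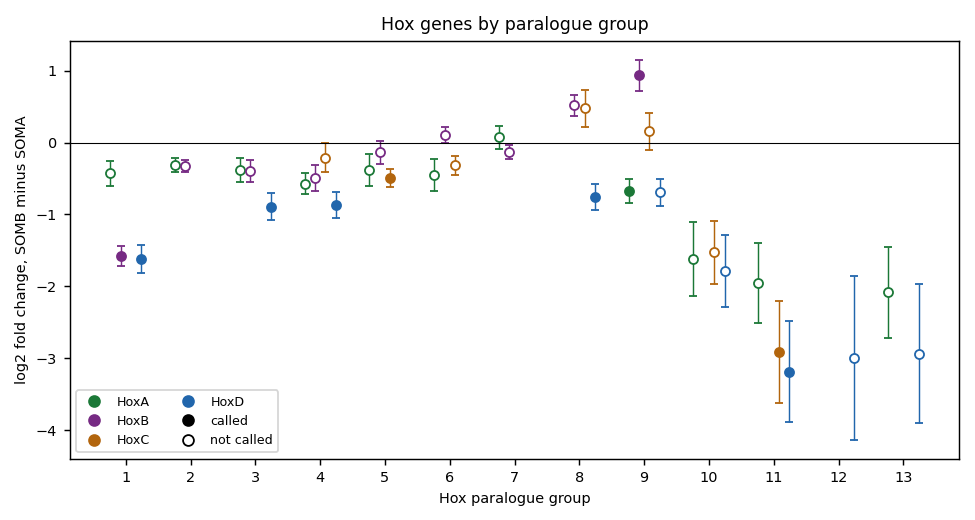
Each point is a Hox gene, with its paralogue group on the horizontal axis and its log2 fold change (SOMB minus SOMA) with its standard error on the vertical axis; colour is the cluster, and filled points passed the edgeR threshold. Groups 1 to 5 lie below 0, groups 6 to 8 around 0, and the genes of groups 10 to 13 lie between −1.53 and −3.19 with wide errors.

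Of 26 tested collagen genes 6 rose and none fell, and 23 had a higher level in SOMB (median log2 fold change 0.43). Among the fibrillar collagens, Col2a1, the main collagen of cartilage, had 65.8, 50.8 and 50.5 CPM in SOMA and 116, 124, 129 and 98.3 CPM in SOMB (log2 fold change 1.07 ± 0.13, edgeR adjusted p = 0.00133), Col1a2 had 94.8, 102 and 63.03 CPM in SOMA and 195, 166, 236 and 186 CPM in SOMB (log2 fold change 1.17 ± 0.17, edgeR adjusted p = 0.00377), and Col3a1 had 241, 115 and 88.6 CPM in SOMA and 614, 470.2, 444 and 403 CPM in SOMB (log2 fold change 1.70 ± 0.31, edgeR adjusted p = 0.0113). Col1a1, whose chain pairs with that of Col1a2, had 125, 118 and 68.2 CPM in SOMA and 168, 97.3, 254 and 179 CPM in SOMB, with SOMB2 within the SOMA range (log2 fold change 0.75 ± 0.30, edgeR adjusted p = 0.251, and 3.07e-04 in the blocked fit). The blocked value leaves out SOMB2, the library that overlapped. Col12a1, which sits on fibrils, rose from a low level (log2 fold change 1.34 ± 0.27, edgeR adjusted p = 0.0169), and Col18a1, of basement membranes, had 207, 249.7 and 192 CPM in SOMA and 301, 305, 415 and 333 CPM in SOMB (log2 fold change 0.65 ± 0.13, edgeR adjusted p = 0.0197). The list held 3 higher without SOMA3 or SOMA4, and the blocked fit called 18 higher and 1 lower. Col1a1 and Col18a1 were chosen after their values were seen. Col3a1 lost its call without SOMA3 (adjusted p reaching 0.0532), as Col12a1 did without SOMA3 or SOMA4 and in the 5-library fit (adjusted p reaching 0.118). Col18a1 lost its call without SOMA1 or SOMA4, in the 15-library fit with pairs summed and in the 5-library fit (adjusted p reaching 0.0888).

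Small leucine-rich proteoglycans, which coat collagen fibrils, rose in 4 of 6 tested (median log2 fold change 2.32). Lum (chr10:97565501-97572703), or lumican, had 1.46, 0.851 and 1.39 CPM in SOMA and 15.6, 15.5, 11.9 and 12.6 CPM in SOMB (log2 fold change 3.46 ± 0.21, edgeR adjusted p = 9.27e-05), and Dcn (chr10:97479500-97518163), or decorin, had 1.59, 0.568 and 1.45 CPM in SOMA and 9.69, 9.64, 6.58 and 5.71 CPM in SOMB (log2 fold change 2.66 ± 0.34, edgeR adjusted p = 0.00176). Fmod, or fibromodulin, had 1.52, 0.568 and 0.121 CPM in SOMA and 4.71, 7.38, 8.44 and 8.103 CPM in SOMB (log2 fold change 3.10 ± 0.51, edgeR adjusted p = 0.00646). Every SOMB library was above every SOMA library for these 3 genes. Podn, or podocan, rose from a low level (log2 fold change 1.98 ± 0.45, edgeR adjusted p = 0.0298). Podn lost its call without SOMA1, SOMA4, SOMB3 or SOMB4 and in the 5-library fit (adjusted p reaching 0.127).

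Of 35 other matrix and integrin genes 4 rose and 3 fell, against 2.52% and 3.44% of all genes (median log2 fold change 0.23). Postn, or periostin, had 31.9, 17.9 and 15.4 CPM in SOMA and 101, 58.9, 64.7 and 89.1 CPM in SOMB (log2 fold change 1.83 ± 0.28, edgeR adjusted p = 0.00406), and Thbs1, or thrombospondin, had 14.4, 9.08 and 6.46 CPM in SOMA and 26.3, 23.5, 20.9 and 17.3 CPM in SOMB (log2 fold change 1.12 ± 0.25, edgeR adjusted p = 0.02797). Lama1, the laminin chain of early basement membranes, fell (218, 256 and 199.8 CPM in SOMA and 118, 79.5, 118 and 96.3 CPM in SOMB, log2 fold change −1.12 ± 0.15, edgeR adjusted p = 0.00193), as did the proteoglycan gene Vcan (log2 fold change −0.45 ± 0.11, edgeR adjusted p = 0.0471). Fn1, or fibronectin, on whose fibrils somites become epithelial, had 1300.0, 1895 and 1213 CPM in SOMA and 856, 566, 1102 and 708 CPM in SOMB without overlap and did not pass (log2 fold change −0.86 ± 0.22, edgeR adjusted p = 0.0542, and 1.19e-06 in the blocked fit). Among the integrins Itga9 rose (58.5, 36.3 and 31.9 CPM in SOMA and 116, 117, 141 and 121 CPM in SOMB, log2 fold change 1.54 ± 0.19, edgeR adjusted p = 0.00164), Itga6 rose (log2 fold change 0.96 ± 0.17, edgeR adjusted p = 0.007799) and Itgb5 fell (−0.62 ± 0.10, edgeR adjusted p = 0.00711). The blocked fit called 16 higher and 7 lower. Thbs1, Vcan, Fn1 and Itga6 were chosen after their values were seen. Thbs1 lost its call without SOMA3, SOMA4, SOMB1 or SOMB2 (adjusted p reaching 0.111), as Vcan did without SOMA1, SOMA3, SOMA4, SOMB1, SOMB3 or SOMB4, with unscaled totals and in the 5-library fit (adjusted p reaching 0.155). Fn1 passed without SOMB3 (edgeR adjusted p = 0.0171). DESeq2, both 15-library fits and the fit without the filter on low counts called Fn1 too.

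Adhesion and guidance molecules changed in both directions. Of 16 cadherins and protocadherins 3 rose and 2 fell (median log2 fold change 0.34). Pcdh19 fell with Pcdh8 (170.3, 229 and 236 CPM in SOMA and 40.8, 21.3, 50.99 and 39.5 CPM in SOMB, log2 fold change −2.48 ± 0.25, edgeR adjusted p = 6.17e-04). Cdh15, or M-cadherin of muscle precursors, rose from a very low level (0.589, 0.639 and 0.483 CPM in SOMA and 3.06, 5.04, 3.26 and 1.76 CPM in SOMB, log2 fold change 2.53 ± 0.38, edgeR adjusted p = 0.00428), and Cdh11, the cadherin of mesenchyme, had 125, 88.98 and 83.5 CPM in SOMA and 166, 195, 134 and 138 CPM in SOMB without overlap and did not pass (log2 fold change 0.67 ± 0.17, edgeR adjusted p = 0.05001, and 3.57e-05 in the blocked fit). Without SOMA4, 1 cadherin gene was called higher; the blocked fit called 5 higher and 2 lower. Cdh3, or P-cadherin, and Pcdh18 rose by a log2 fold change of 0.51 ± 0.11 and 0.71 ± 0.14 (edgeR adjusted p from 0.0152 to 0.0201). Cdh3, Pcdh18, Cdh15 and Cdh11 were chosen after their values were seen. Cdh3 lost its call without SOMA1, SOMA4 or SOMB1, in the 15-library fit with pairs summed and in the 5-library fit (adjusted p reaching 0.1599), as Pcdh18 did without SOMA3 or SOMA4 (adjusted p reaching 0.0774). Cdh11 passed without SOMA1 or SOMB3 and in the 5-library fit (edgeR adjusted p up to 0.0418 with the library left out). It also passed with DESeq2, in both 15-library fits, with RLE in place of TMM scaling and without the filter on low counts.

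Ephrins and Eph receptors, which keep cell groups apart by contact, fell more than they rose, with 7 of 20 lower and 2 higher (median log2 fold change −0.17). Epha4, a receptor used at the somite boundary, had 138, 128 and 111 CPM in SOMA and 77.6, 55.2, 69.8 and 52.4 CPM in SOMB (log2 fold change −0.98 ± 0.14, edgeR adjusted p = 0.00337). Epha7 rose (19.5, 10.7 and 12.1 CPM in SOMA and 51.98, 54.5, 52.6 and 51.1 CPM in SOMB, log2 fold change 1.87 ± 0.18, edgeR adjusted p = 6.17e-04), as Ephb3 did by less (log2 fold change 0.48 ± 0.11, edgeR adjusted p = 0.0302), while Epha5 and Epha1 fell (log2 fold change −3.10 ± 0.54 and −1.86 ± 0.30, edgeR adjusted p from 0.00583 to 0.008296). Efnb2, the ligand at the boundary, had 124, 92.4 and 84.5 CPM in SOMA and 63.6, 37.98, 86.95 and 59.04 CPM in SOMB and overlapped (log2 fold change −0.70 ± 0.24, edgeR adjusted p = 0.149, and 0.00768 in the blocked fit). The list held 1 higher without SOMA3, SOMA4, SOMB1, SOMB3 or SOMB4 and 4 lower without SOMA3 or SOMA4, and 7 higher and 9 lower in the blocked fit. Ephb3, Epha5, Epha1 and Efnb2 were chosen after their values were seen. Ephb3 lost its call without SOMA3, SOMA4, SOMB1, SOMB3 or SOMB4, with unscaled totals and in the 5-library fit (adjusted p reaching 0.137). Efnb2 passed without SOMB3 (edgeR adjusted p = 0.0357) and with DESeq2.

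Of 27 guidance genes 5 rose and 1 fell (median log2 fold change 0.15). The semaphorin receptors Nrp1 and Nrp2 rose, Nrp2 with 146, 141 and 139 CPM in SOMA and 284, 223, 327 and 288 CPM in SOMB (log2 fold change 0.98 ± 0.12, edgeR adjusted p = 0.001404) and Nrp1 by a log2 fold change of 0.82 ± 0.15 (edgeR adjusted p = 0.0119). Of their ligands, Sema3a, Sema3c and Sema3d rose. Sema3a had 34.8, 24.6 and 31.2 CPM in SOMA and 54.8, 62.1, 62.6 and 62.8 CPM in SOMB (log2 fold change 0.997 ± 0.12, edgeR adjusted p = 0.00151), and Sema3d had 0.381, 0.7096 and 0.724 CPM in SOMA and 3.93, 6.73, 3.72 and 2.82 CPM in SOMB (log2 fold change 2.90 ± 0.39, edgeR adjusted p = 0.00236). The change of Sema3c was smaller (log2 fold change 0.62 ± 0.12, edgeR adjusted p = 0.01403). Signals through neuropilins keep axons and neural crest cells out of parts of the somite. Unc5b, a netrin receptor, fell (log2 fold change −0.65 ± 0.16, edgeR adjusted p = 0.0494). In the blocked fit edgeR called 14 higher and 4 lower. Nrp1, Sema3c, Sema3d and Unc5b were chosen after their values were seen. Sema3c lost its call without SOMA1 or SOMA3 and in the 5-library fit (adjusted p reaching 0.103), as Unc5b did without SOMA1, SOMA3, SOMA4, SOMB2, SOMB3 or SOMB4, with unscaled totals, in both 15-library fits and in the 5-library fit (adjusted p reaching 0.172).

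Of 20 factors of mesenchyme 3 rose and 1 fell (median log2 fold change 0.36). Twist2, a bHLH factor related to Twist1, rose (log2 fold change 0.66 ± 0.13, edgeR adjusted p = 0.0142) and Zeb2, a zinc finger repressor of epithelial genes, fell (log2 fold change −0.64 ± 0.096, edgeR adjusted p = 0.00398). Ebf3, a factor of somite derivatives, had 8.94, 4.12 and 2.11 CPM in SOMA and 34.7, 35.4, 39.02 and 22.8 CPM in SOMB (log2 fold change 2.64 ± 0.39, edgeR adjusted p = 0.00376), and Snai2, or Slug, which drives cells out of epithelia, had 15.4, 14.1 and 13.8 CPM in SOMA and 32.5, 27.9, 22.4 and 32.1 CPM in SOMB (log2 fold change 0.99 ± 0.14, edgeR adjusted p = 0.00299). The list held 5 higher without SOMB2 and 6 higher without SOMA1, and 11 higher and 3 lower in the blocked fit. Of 8 Zic and Irx genes 3 fell and 1 rose (median log2 fold change −0.54). Zic2 had 50.9, 44.3 and 49.1 CPM in SOMA and 27.9, 23.5, 26.1 and 28.3 CPM in SOMB (log2 fold change −0.87 ± 0.095, edgeR adjusted p = 9.32e-04), so it fell, as Zic5 did (log2 fold change −1.59 ± 0.27, edgeR adjusted p = 0.00765), while Zic1, given above, was higher in every SOMB library. Irx5 rose (log2 fold change 0.63 ± 0.16, edgeR adjusted p = 0.0465). Twist2, Zeb2, Zic5 and Irx5 were chosen after their values were seen. Twist2 lost its call without SOMA3 or SOMA4 (adjusted p reaching 0.0738), as Zic5 did in the 5-library fit (adjusted p reaching 0.0521). Irx5 lost its call without SOMA3, SOMA4, SOMB1, SOMB2 or SOMB4, with unscaled totals, in both 15-library fits and in the 5-library fit (adjusted p reaching 0.178). With the block edgeR called 5 higher and 4 lower of this list.

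Of 14 genes of progenitor and embryonic identity 3 fell and 1 rose (median log2 fold change −0.11). Sall4, a zinc finger factor of stem and progenitor cells, had 174, 197 and 188 CPM in SOMA and 91.1, 66.6, 73.9 and 77.3 CPM in SOMB (log2 fold change −1.27 ± 0.11, edgeR adjusted p = 3.60e-04), and its relative Sall1 had 349.9, 392 and 353 CPM in SOMA and 185, 107, 241 and 193 CPM in SOMB (log2 fold change −1.01 ± 0.21, edgeR adjusted p = 0.0223). Mycn, the Myc family member of growing embryonic tissue, fell by a log2 fold change of −0.56 ± 0.083 (edgeR adjusted p = 0.00398), opposite to Myc. Lin28b, an RNA-binding protein that blocks let-7 microRNAs, rose (163, 168 and 177 CPM in SOMA and 226, 239, 249 and 249.7 CPM in SOMB, log2 fold change 0.51 ± 0.072, edgeR adjusted p = 0.00299). The blocked fit called 1 higher and 5 lower. Sall1 and Mycn were chosen after their values were seen. Sall1 lost its call without SOMA3, SOMA4, SOMB1 or SOMB4 and in the 5-library fit (adjusted p reaching 0.118).

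All 20 tested genes of cholesterol synthesis and uptake had a lower level in SOMB, by modest amounts, and 4 passed (median log2 fold change −0.48, range −0.13 to −0.60). Hmgcs1, an enzyme of the early steps, had 258, 333 and 313 CPM in SOMA and 191, 197, 194 and 212 CPM in SOMB (log2 fold change −0.60 ± 0.094, edgeR adjusted p = 0.00504). Cyp51 and Nsdhl, which act later in the pathway, fell by a log2 fold change of −0.59 ± 0.11 and −0.57 ± 0.13 (edgeR adjusted p = 0.01095 and 0.0378). For all 4 that passed, SOMA1 was the lowest SOMA library and SOMB1 the lowest SOMB library. The list held 2 lower without SOMA3 or SOMA4 and 10 lower without SOMA1, and 18 lower in the blocked fit. Cyp51 and Nsdhl were chosen after their values were seen. Cyp51 lost its call without SOMA3 or SOMA4 (adjusted p reaching 0.0594), as Nsdhl did without SOMA3, SOMA4, SOMB1, SOMB2, SOMB3 or SOMB4 (adjusted p reaching 0.161).

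Of 22 glycolysis genes Slc2a3, a glucose transporter, fell (94.4, 200.2 and 179 CPM in SOMA and 57.96, 33.5, 76.4 and 77.1 CPM in SOMB, log2 fold change −1.37 ± 0.31, edgeR adjusted p = 0.02897) and Eno3, a muscle enolase, rose (log2 fold change 0.54 ± 0.10, edgeR adjusted p = 0.0137), with a median log2 fold change of −0.15 and 1 higher and 6 lower in the blocked fit. Of 34 cell cycle genes 2 rose and none fell (median log2 fold change 0.055), Cdkn1c, the p57 inhibitor of cyclin-dependent kinases (118, 117 and 114 CPM in SOMA and 182, 226, 182 and 205 CPM in SOMB, log2 fold change 0.77 ± 0.092, edgeR adjusted p = 0.00126), and Ccnd3, a D cyclin (log2 fold change 0.36 ± 0.070, edgeR adjusted p = 0.0157). The list held 1 higher without SOMA1, SOMA3, SOMA4 or SOMB4, and 6 higher and 1 lower in the blocked fit. Of all genes tested without the block 2.52% were higher and 3.44% lower, so these few calls are not read as a result on either list. Slc2a3 lost its call without SOMA3, SOMA4 or SOMB1 (adjusted p reaching 0.116), as Eno3 did without SOMA1 or SOMA4 (adjusted p reaching 0.0573). Ccnd3 lost its call without SOMA1, SOMA3, SOMA4 or SOMB4 and in the 5-library fit (adjusted p reaching 0.0776).

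Of 16 PDGF and IGF genes Igfbp2 and Igfbp3, which bind IGFs, fell (log2 fold change −0.36 ± 0.083 and −0.44 ± 0.090, edgeR adjusted p = 0.0327 and 0.0194), with a median of −0.20, 0 lower without SOMA4 or SOMB4 and 1 lower without SOMA1, SOMA3 or SOMB1, and 3 higher and 8 lower in the blocked fit. Of 17 immediate early and heat shock genes, which also respond to dissociation, Btg2, an antiproliferative gene, fell (42.4, 84.5 and 76.4 CPM in SOMA and 17.9, 17.98, 18.4 and 15.7 CPM in SOMB, log2 fold change −1.95 ± 0.20, edgeR adjusted p = 7.52e-04) and Atf3, a stress-induced factor, rose (5.23, 10.5 and 4.11 CPM in SOMA and 11.5, 15.8, 18.6 and 13.9 CPM in SOMB, log2 fold change 1.20 ± 0.30, edgeR adjusted p = 0.0474). The median of that list was 0.12 and its summed level was 425 to 802 CPM in SOMA and 450.0 to 1076 CPM in SOMB, so the groups overlapped. In the blocked fit edgeR called 6 higher and 2 lower of it. Beside 2.52% higher and 3.44% lower of all genes without the block, the few calls in these lists are not read as results on them. Igfbp2 lost its call without SOMA1, SOMA3, SOMA4, SOMB1, SOMB3 or SOMB4 and in the 5-library fit (adjusted p reaching 0.154), as Igfbp3 did without SOMA1, SOMA4 or SOMB4, in both 15-library fits and in the 5-library fit (adjusted p reaching 0.1302). Atf3 lost its call without SOMA1, SOMA4, SOMB1, SOMB2, SOMB3 or SOMB4, with unscaled totals, in the 15-library fit with pairs summed, with the no-feature term and in the 5-library fit (adjusted p reaching 0.178).

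Some of the largest changes lie outside the lists. Taking genes above a mean of 5 CPM whose groups did not overlap, Colec10, a collectin gene, had 0.901, 0.568 and 1.93 CPM in SOMA and 10.3, 6.93, 12.4 and 8.95 CPM in SOMB (log2 fold change 3.09 ± 0.36, edgeR adjusted p = 0.00124), and Pkdcc, a secreted tyrosine kinase of developing skeleton, had 20.4, 13.9 and 15.3 CPM in SOMA and 73.8, 86.97, 112 and 78.1 CPM in SOMB (log2 fold change 2.39 ± 0.18, edgeR adjusted p = 2.13e-04). Cldn1, a tight junction protein gene, had 3.71, 1.63 and 1.09 CPM in SOMA and 10.8, 12.4, 10.9 and 14.7 CPM in SOMB (log2 fold change 2.42 ± 0.34, edgeR adjusted p = 0.002996). Rises of 2.12 to 2.52 in log2 fold change were seen in Slitrk6, Gpr50, Ppp2r2b, C1qtnf3 and the unnamed transcript 9130206I24Rik (edgeR adjusted p from 1.72e-04 to 0.00164). On the other side, Sv2b, a synaptic vesicle protein gene, had 7.07, 19.9 and 19.5 CPM in SOMA and 0.567, 0.0806, 0.266 and 0.211 CPM in SOMB (log2 fold change −5.72 ± 0.52, edgeR adjusted p = 4.61e-04), and Adamtsl2, a matrix protein gene, had 5.27, 20.8 and 15.2 CPM in SOMA and 1.05, 1.21, 0.997 and 1.13 CPM in SOMB (log2 fold change −3.62 ± 0.42, edgeR adjusted p = 0.00124). Both had their lowest SOMA level in SOMA1, as did most genes of presomitic mesoderm.

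The summed levels of the markers of 8 other cell types overlapped between the groups in each list, and their part in the results above was not tested. Sums are over all listed members, also those too low to test. The 16 listed neural tube and crest markers summed to 189.9 to 233 CPM in SOMA and 209 to 278 CPM in SOMB, most of it Nes. Of the 12 tested, 9 had a positive log2 fold change (median log2 fold change 0.69). Of these Nkx6-1 passed (1.97, 0.993 and 2.35 CPM in SOMA and 5.59, 7.14, 3.66 and 4.23 CPM in SOMB, log2 fold change 1.53 ± 0.32, edgeR adjusted p = 0.0227), the blocked fit called 7 higher and 0 lower, and DESeq2 called 5 of 15 higher. Olig2, of motor neuron precursors, had 2.49, 2.696 and 1.99 CPM in SOMA and 7.51, 14.9, 3.39 and 5.78 CPM in SOMB (log2 fold change 1.74 ± 0.45, edgeR adjusted p = 0.0531), and Neurog2, a proneural factor, had 1.32, 1.06 and 1.81 CPM in SOMA and 3.23, 6.53, 2.06 and 3.1 CPM in SOMB (log2 fold change 1.43 ± 0.40, edgeR adjusted p = 0.0737), in both with SOMB2 highest, as in Pax6, of the neural tube (log2 fold change 0.84 ± 0.36, edgeR adjusted p = 0.284). Sox10, of neural crest, was too low to test, with 0.208, 0 and 0.181 CPM in SOMA and 1.22, 1.29, 0.399 and 0.352 CPM in SOMB, higher in every SOMB library. SOMB2 was also the highest library for Pax1, Pax9 and Sox9. Olig2, Neurog2, Pax6 and Sox10 were chosen after their values were seen. Nkx6-1 lost its call without SOMA1, SOMA3 or SOMB1 and in the 5-library fit (adjusted p reaching 0.135). Olig2 and Neurog2 passed without SOMB3 (edgeR adjusted p = 0.0133 and 0.0327). Both passed with DESeq2, with the block, in the 15-library fit and without the filter on low counts, and Olig2 also with pairs summed.

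The 8 intermediate mesoderm markers summed to 114 to 119 CPM in SOMA and 109 to 186 CPM in SOMB (median log2 fold change 0.37). Pax8 rose (3.29, 4.399 and 3.02 CPM in SOMA and 9.51, 6.57, 23.7 and 13.2 CPM in SOMB, log2 fold change 1.89 ± 0.41, edgeR adjusted p = 0.0252), and Pax2 had 1.87, 5.61 and 3.92 CPM in SOMA and 7.16, 5.48, 25.3 and 12.1 CPM in SOMB (log2 fold change 1.75 ± 0.56, edgeR adjusted p = 0.121), both with SOMB3 highest; the blocked fit called 4 higher and 1 lower. The 12 listed lateral plate and heart markers summed to 392 to 613 CPM in SOMA and 287 to 482 CPM in SOMB. None of the 11 tested passed edgeR (median −0.47). Isl1, a factor of heart and limb precursors that was highest in SOMA1, had 87.2, 37.96 and 40.4 CPM in SOMA and 30.3, 13.7, 5.92 and 7.82 CPM in SOMB (log2 fold change −1.91 ± 0.50, edgeR adjusted p = 0.0562), and the blocked fit called 3 higher and 3 lower. Of 6 notochord markers Noto fell (1.18, 1.06 and 1.27 CPM in SOMA and 0.0873, 0, 0 and 0.211 CPM in SOMB, log2 fold change −4.03 ± 0.63, edgeR adjusted p = 0.004704), while the list summed to 132 to 186 CPM in SOMA and 119 to 198 CPM in SOMB (median 0.043), with 1 higher and 1 lower in the blocked fit. Pax2 and Isl1 were chosen after their values were seen. Pax8 lost its call without SOMA1, SOMA3, SOMA4 or SOMB4 and in the 5-library fit (adjusted p reaching 0.118). Isl1 passed without SOMB1 and in the 5-library fit (edgeR adjusted p = 0.00766 with the library left out). The blocked fit, both 15-library fits and the fit without the filter on low counts called Isl1 too.

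No marker passed edgeR among those tested, 12 of endothelium, 4 of blood, 6 of endoderm and 7 of surface ectoderm. The endothelial list summed to 65.5 to 251 CPM in SOMA and 105 to 282 CPM in SOMB. Blood summed to 5.82 to 48.3 CPM in SOMA and 3.72 to 40.8 CPM in SOMB, and surface ectoderm to 11.3 to 20.2 and 8.51 to 13.9 CPM. Endoderm summed to 15.94 to 16.73 CPM in SOMA and 14.11 to 15.95 CPM in SOMB, so these groups only just overlapped. All 12 endothelial markers had a positive log2 fold change (median 0.36), and the medians of blood, endoderm and surface ectoderm were −0.29, −0.54 and −0.39. With the block edgeR called 2 higher and 0 lower in endothelium, none in blood, 0 higher and 1 lower in endoderm and 0 higher and 3 lower in surface ectoderm. Gata1, Klf1, Ptprc and Csf1r in blood, Hnf4a and Ttr in endoderm, and Krt5, Krt14 and Trp63 in ectoderm were too low to test.

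**Figure D5:**
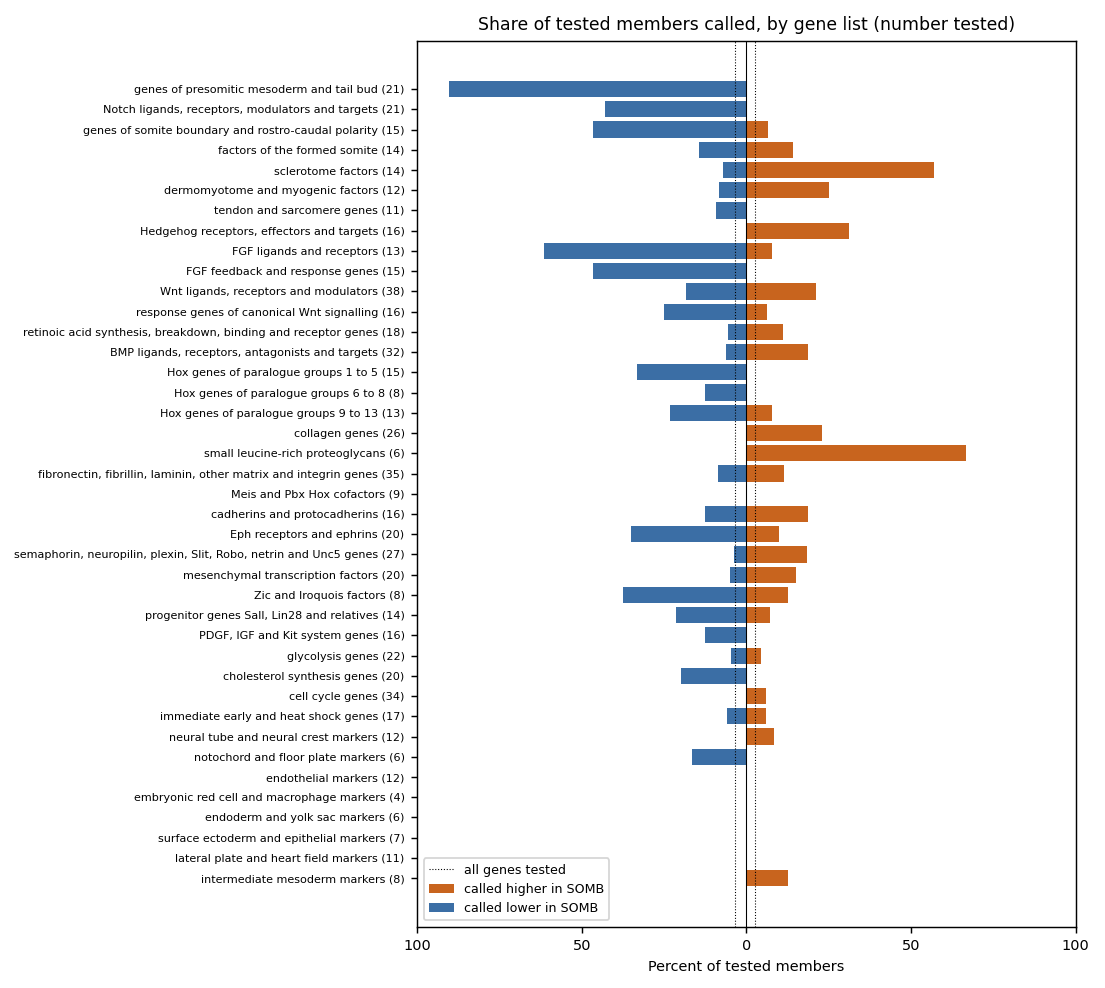
Bars give the percent of tested members called higher (orange, to the right) or lower (blue, to the left) in SOMB for each of the 40 gene lists, with the number tested in brackets, and the dotted lines give the share of all genes tested (2.52% higher and 3.44% lower). The longest bars to the left are those of presomitic mesoderm and FGF ligands, and the longest to the right those of leucine-rich proteoglycans and sclerotome factors.

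Levels in older somites, on 1 scaling of the 15 libraries of the series, show where the SOMB values lie; they are ranges without a test, since SOMC1 and SOMC4 differed by a spread of only 0.0937 in log2 ratio over genes, as did SOMD1 and SOMD4 (0.102), against 0.243 to 0.398 for pairs within SOMA and SOMB. The presomitic genes stayed low, with Msgn1 at 0.145 to 0.251 CPM in SOMC and 0 to 0.1505 CPM in SOMD and Cdx4 at 0.3798 to 1.13 CPM in SOMC and 0 to 0.105 CPM in SOMD. Dll1 was at 17.2 to 21.9 CPM in SOMC and 8.73 to 14.8 CPM in SOMD and Nrarp at 7.03 to 10.1 CPM in SOMC and 5.96 to 9.71 CPM in SOMD, both below the levels of SOMA. Pax1, at 55.4 to 67.8 CPM in SOMC and 69.3 to 86.1 CPM in SOMD, lay within the range of SOMB (37.6 to 106.6 CPM). Nkx3-2, at 5.46 to 7.37 CPM in SOMC and 7.602 to 11.9 CPM in SOMD, lay above all SOMB libraries in both groups, as did Lum (25 to 38.8 CPM in SOMC and 26.6 to 31.2 CPM in SOMD) and Col2a1 (193 to 267 CPM in SOMC and 214 to 304 CPM in SOMD). Hoxd11 was at 0.0627 to 1.84 CPM in SOMC and 0.376 to 4.77 CPM in SOMD.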

How the data were processed

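RNA was sequenced from 7 libraries of sorted cells, 3 of SOMA and 4 of SOMB. Libraries were made with the TruSeq RNA v2 kit, which does not mark strand, and 11 rounds of PCR, per the labels. The deposited files hold raw read counts for each gene, which the authors made with mm10; the submitters' processing notes name TopHat2 2.0.9, HTSeq 0.6, DESeq2 1.10 and Cufflinks. The annotation and the strand setting were not given in the sources used here. Without strand, reads of overlapping and antisense genes cannot be told apart.

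The 5 HTSeq summary lines were removed from 23337 genes, and reads in no feature were 7.57 to 12.8% of the total. After filterByExpr (a minimum count of 10 and total of 15) and TMM scaling, the 7 libraries alone were fitted and tested with edgeR 4.0.16 (quasi-likelihood F test, prior count 0.125, R 4.3.3), with Benjamini-Hochberg adjustment over all genes tested and a threshold of 0.05. The standard error is the absolute log2 fold change over the square root of F. Exact permutation of 3 against 4 libraries cannot go below 0.0571, so none is given.

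The 40 gene lists (679 genes, 599 tested) and the members compared were chosen with earlier results of these data known. Genes named are the 15 largest called increases and decreases with a mean of at least 5 CPM and no overlap, without Xist, Tsix or Y-linked genes, the called list members with the lowest p (at most 4 or 2 a list) and a set of anchor genes. Others are said to be chosen after their values were seen. Some genes that this rule names are not reported here. Replicate numbers were taken as pairing samples in the blocked fit only. The test that gave the calls does not use them. The rule was that each same-number correlation of deviations from the group means exceeded 0.1. SOMA4 and SOMB2, of different numbers, exceeded it too (0.235), so the rule is not specific to equal numbers. The labels do not state a pairing, and SOMB2 has no partner. Coordinates and promoter sequences are from RefSeq (GRCm38.p6). Plots used matplotlib 3.10.9 and Python 3.11.15.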

Additional observations from a re-analysis of the deposited data

Results flagged for a closer look

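In 8 of 195 named genes 1 SOMB library stood far from the other 3. Its gap to the nearest library, over the range, was above Dixon's critical value for 4. That value flags about 1 in 20 groups of random normal values. Most of these genes were named for a call or after their values were seen, so the number flagged cannot be set against that rate. SOMB1 was the highest for Msgn1 (0.698 CPM), Tbx6 (5.06 CPM), Pcdh8 (19.9 CPM), Hoxd12 (2.66 CPM) and Hoxd13 (19.6 CPM), and the lowest for Sema3a (54.8 CPM). SOMB3 was the highest for Pax3 (61.6 CPM), and SOMB2 the lowest for Cer1 (0.202 CPM). In the genes of presomitic mesoderm and posterior Hox groups among these, SOMB1 was the SOMB library nearest to SOMA. The groups of 3 SOMA libraries were too small for this check.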

How the results depend on the processing

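With the replicate number as a block, 1296 genes were higher and 1231 lower; DESeq2 called 518 higher, and the fit of 15 libraries 569. Leaving out 1 library gave 166 to 360 genes higher and 274 to 424 lower. The other settings stayed within 1.5 times of the main counts. Of 194 named genes tested, 154 were called, 102 of them in all 16 settings, and 52 were lost in at least 1; none was lost under the block. Of the 40 not called, 32 passed in at least 1 setting. The sign turned for Hes1 with the no-feature share as a term (0.0016) and over single left-out libraries (−0.27 to 0.071), for Cdx1 over single left-out libraries (−0.69 to 0.0038), and for Hoxc9 with the block (−0.049), in the 5 libraries of lower no-feature share (−5.52e-04) and over single left-out libraries (−0.056 to 0.35). The cause was not tested. Where a fit leaves SOMA with 2 libraries, their spread is taken to be like that of SOMB. Depth limits genes under about 1 CPM, such as Mesp1 and Noto in SOMB.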
